A study of Mus musculus with 6 samples.

Results

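The 10 genes described here are *Nfe2l2*, which encodes the transcription factor NRF2, and 9 antioxidant, glutathione and detoxification genes that NRF2 is known to control (*Nqo1*, *Gclc*, *Gclm*, *Hmox1*, *Txnrd1*, *Srxn1*, *Slc7a11*, *Gsta4* and *Gstp1*). They were chosen by gene symbol, and all 10 were among the 15280 genes of the expression table. The table holds RNA-Seq libraries from 3 parous transgenic BK5.ATF3 females, in which the transcription factor ATF3 is overexpressed in basal epithelial cells. From each mouse, 1 mammary tumor and the adjacent normal mammary gland were sequenced, so n = 3 for each tissue and every comparison is within transgenic animals, with no wild-type tissue. Each female had raised a litter. Per the labels, tumors appeared in most mice of the line from 6 to 12 months of age and were collected once 1.5 cm long, and the age of each mouse is not given in the sources used here. The libraries carry the names of their labels, with M for gland and T for tumor before the number of the mouse, so that M11035 and T11035, M11640 and T11640, and M9232 and T9232 are the 3 pairs.

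NRF2 is held at a low level by KEAP1, which passes it to a ubiquitin ligase for degradation. Oxidants and electrophiles modify KEAP1, and NRF2 then accumulates and binds antioxidant response elements together with small MAF proteins. Because this control acts on the protein, the mRNA of *Nfe2l2* is not a measure of NRF2 activity. The best known NRF2 target genes import cystine, make glutathione, reduce thioredoxin, break down heme, reduce quinones and conjugate glutathione to reactive compounds.

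The promoters are shown because the antioxidant response element is the DNA sequence by which NRF2 is known to act. The window ran from 250 bases before to 50 bases after each RefSeq gene start (GRCm38.p6), and each window of the 10 genes was then located in the mm9 genome by an exact match, which was unique on its chromosome. Of the 10 genes, 7 had at least 1 window, 9 windows in all, and *Gclc*, *Hmox1* and *Gsta4* had none. The motif searched was TGACNNNGC on both strands, whose first letters are also those of an AP-1 site (TGACTCA). It was found in 4 of the 9 windows, against 12.4% of all 32851 windows of this length. The matches began 240 bases before the start in *Nfe2l2*, 134 bases before in *Gclm*, 92 bases before in 1 of the 3 *Txnrd1* windows, and 28 bases after the start in *Srxn1*. With an A required after the motif, *Txnrd1* alone had a match, against 3.04% of all windows. The windows of *Slc7a11*, *Nqo1* and *Gstp1* had no match to this motif. Only this spelling was searched, so close variants, such as the TGAGTCAGC in the *Gstp1* and *Srxn1* windows, were not counted. No match here therefore does not mean that the element is absent. Below are the 250 bases before the start of the 3 genes with a match there and of *Slc7a11*, the gene with the largest change. Each is written 5′ to 3′ along the strand of its gene, and capitals mark the motif, which lies on the opposite strand in *Gclm* and *Txnrd1*. A match is only a run of letters, and binding was not measured.
*Nfe2l2*, mm9 chr2:75542721-75542970, minus strand: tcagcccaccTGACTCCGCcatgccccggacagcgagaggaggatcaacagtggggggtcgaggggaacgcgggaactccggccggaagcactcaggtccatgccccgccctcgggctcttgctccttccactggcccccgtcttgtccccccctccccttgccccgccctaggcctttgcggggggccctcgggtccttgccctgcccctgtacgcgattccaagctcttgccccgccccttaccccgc
*Gclm*, mm9 chr3:121948225-121948474, plus strand: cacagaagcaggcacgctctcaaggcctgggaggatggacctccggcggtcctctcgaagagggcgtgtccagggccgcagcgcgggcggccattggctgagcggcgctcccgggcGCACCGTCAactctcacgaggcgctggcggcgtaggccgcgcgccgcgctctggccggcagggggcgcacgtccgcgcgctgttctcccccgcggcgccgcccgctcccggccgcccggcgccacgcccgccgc
*Txnrd1*, mm9 chr10:82321701-82321950, plus strand: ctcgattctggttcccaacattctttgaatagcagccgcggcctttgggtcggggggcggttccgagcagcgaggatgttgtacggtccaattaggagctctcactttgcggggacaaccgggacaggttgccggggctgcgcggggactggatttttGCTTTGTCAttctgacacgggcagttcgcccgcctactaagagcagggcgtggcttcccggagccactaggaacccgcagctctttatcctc
*Slc7a11*, mm9 chr3:50247536-50247785, minus strand: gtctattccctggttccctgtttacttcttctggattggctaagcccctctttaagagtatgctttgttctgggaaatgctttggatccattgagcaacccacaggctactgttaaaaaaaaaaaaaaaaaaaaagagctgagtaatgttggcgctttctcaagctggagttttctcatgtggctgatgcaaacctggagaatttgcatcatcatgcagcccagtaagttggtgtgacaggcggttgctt

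Expression is given as CPM, the fragments on a gene per 1000000 fragments of the effective library size that edgeR estimates. The libraries held 4750989 to 7806908 fragments on genes, and 3 fragments, the floor of detection used here, correspond to between 0.393 and 0.610 CPM. All 10 genes were above this floor in every library, and the lowest count was 13 fragments, for *Gstp1* in M11035. *Atf3* had 4.47, 8.09 and 22.6 CPM in M11035, M11640 and M9232 and 13.4, 18.3 and 19.3 CPM in T11035, T11640 and T9232, so the tissues overlapped (log2 fold change 0.80, adjusted p = 0.223, limma). Whether these fragments came from the transgene is not given in the sources used here. The summed level of 12 adipocyte markers was 7323 to 13731 CPM in the glands and 271.5 to 424 CPM in the tumors, where *Lep* did not exceed the floor, and 12 of 12 were called down. The sum of 12 epithelial markers was 265 to 559.9 CPM in the glands and 3968 to 5170.0 CPM in the tumors, with 9 of 12 called up. Of 12 squamous markers, 12 were called up, with sums of 14.9 to 18.7 and 3212 to 5093 CPM, and *Ivl*, *Lor*, *Sprr1b* and *Tgm3* were at or under the floor in the glands. The 12 skeletal muscle markers summed to 16914, 5855 and 379 CPM in M11035, M11640 and M9232 and to 50.5 to 108 CPM in the tumors, with 5 of 12 called down and *Ckm*, *Tnnc2*, *Pvalb*, *Actn3* and *Myh2* not above the floor in any tumor. The sums of 12 fibroblast markers were 1329 to 5004 CPM in the glands and 12355 to 14202 CPM in the tumors (5 called up and 1 down). Those of 10 neutrophil markers were 235 to 629 and 877 to 1471 CPM (5 up and 3 down, *Mpo* not above the floor in any tumor). Much of this sum came from *S100a9*, with means of 40.4 CPM in the glands and 683 CPM in the tumors. The 3 markers called down were *Ngp*, *Mpo* and *Ltf*, so the markers did not move together. The sums of 12 macrophage markers were 422 to 1391 and 714 to 1159 CPM (1 up and 1 down), and those of 12 endothelial markers were 436 to 588 and 284 to 389 CPM (0 up and 3 down). In bulk tissue, fewer cells of a type and less RNA per cell cannot be told apart, and tissue and cell makeup changed together in these libraries, so their part in the results on the 10 genes was not tested.

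Tumors were compared with glands by limma's two-sided moderated test on log2(CPM + 0.5). P-values were adjusted by Benjamini and Hochberg's method over the 15280 genes. A gene was called up or down with an adjusted p of at most 0.05 and a fold change of at least 2. Of the 10 genes, 3 were called up (*Slc7a11*, *Hmox1* and *Nfe2l2*) and 0 were called down, where 14.5% of all genes were called up and 13.7% down. At any fold, 4 of the 10 genes passed the adjusted p with a higher level in the tumors, where 21.6% of all genes did, and 1 with a lower level, where 19.6% did (41.2% in either direction). The genes that passed without reaching the fold of 2 were *Txnrd1*, higher, and *Gclc*, lower. The median log2 fold change of the 10 genes was 0.43, and that of all genes was -0.0028. *Srxn1*, *Gsta4*, *Gclm*, *Nqo1* and *Gstp1* did not pass. With 3 libraries a tissue the smallest two-sided p of an exact permutation test is 0.1, and the calls therefore depend on how limma pools the variance of all genes. Of the 3 calls, that of *Slc7a11* alone was made whichever library was left out. Without M11035, or without T11640, *Slc7a11* was the only gene of the 10 called up, and without M11035 *Gclc* was called down. A further fit, chosen after seeing the data, left out M11035 and M11640, the glands with the most muscle transcripts. Thus 1 gland remained, which was assumed to vary like the tumors. With no library left out, the log2 fold changes of *Slc7a11*, *Nfe2l2*, *Hmox1* and *Txnrd1* were 2.13, 1.05, 1.22 and 0.92. All of these were smaller in the further fit, whereas that of *Gclc*, -0.89 with no library left out, was larger in size. Fewer of all genes were also called in that fit. What part the muscle transcripts had in the changes of that fit was not tested. In it *Slc7a11* was the only gene called (log2 fold change 1.46, limma adjusted p = 0.0216). The corresponding values of *Nfe2l2*, *Hmox1*, *Txnrd1* and *Gclc* were 0.89, 0.64, 0.83 and -0.99, with adjusted p of 0.0321, 0.437, 0.0551 and 0.0327 (limma).

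**Figure D1:**
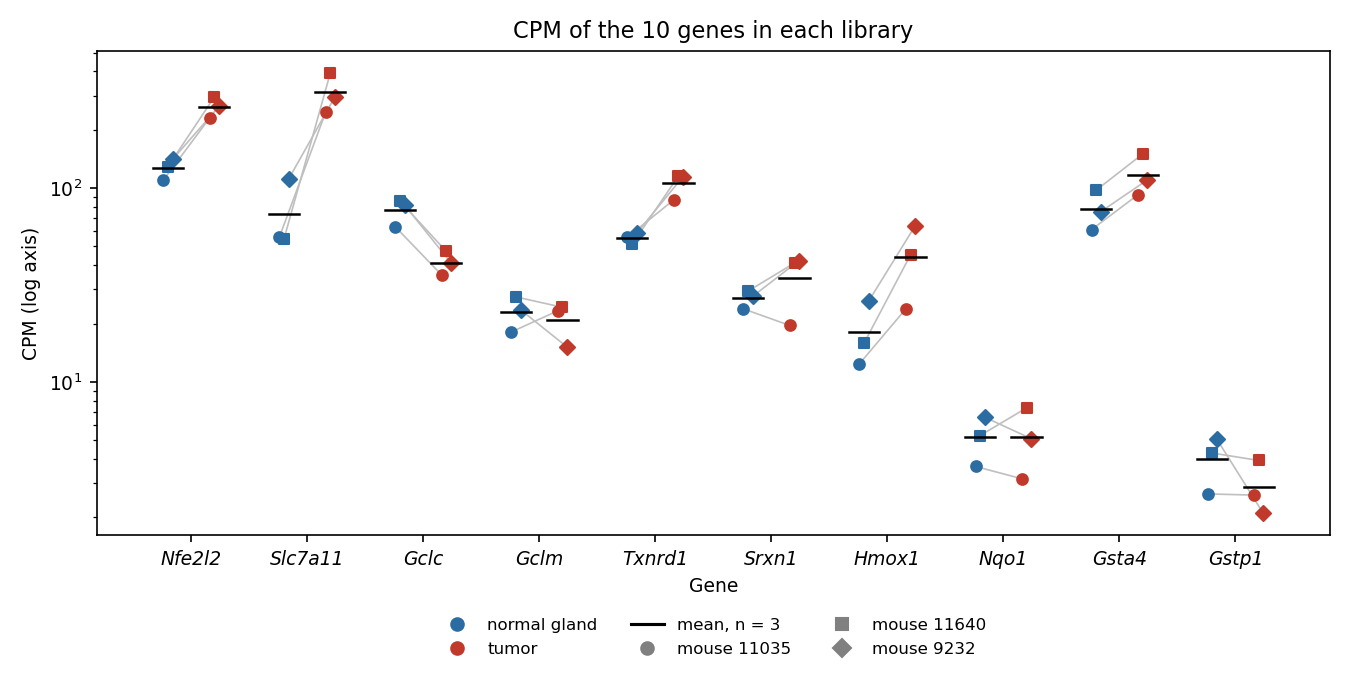
CPM of the 10 genes (log axis) in each library, with glands in blue, tumors in red, a symbol and a gray line for each mouse, and a black bar at the mean of each tissue (n = 3). The red points of *Nfe2l2*, *Slc7a11* and *Txnrd1* all lie above the blue ones, those of *Gclc* all lie below, and the other 6 genes overlap.

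*Nfe2l2* encodes NRF2 itself and lies on chromosome 2 (mm9, 75513570 to 75542698). It had 109.8, 129 and 141 CPM in M11035, M11640 and M9232 and 230.0, 295 and 263 CPM in T11035, T11640 and T9232. The 3 tumors all lay above the 3 glands, where 27.6% of all genes did the same. The gland mean was 126 ± 15.6 CPM (SD, n = 3) and the tumor mean 263 ± 32.4 CPM, a rise of 2.07-fold (log2 fold change 1.05 ± 0.16 SE, adjusted p = 9.06e-04, limma). The fold sat close to the threshold of 2. Without M11035 the log2 fold change was 0.95 and without T11640 it was 0.97, both under the threshold of 1, with adjusted p of 0.0028 and 0.00757 (limma). In 15 other fits its adjusted p was between 2.12e-07 (DESeq2) and 0.0321 (limma, with 1 gland).

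*Slc7a11* encodes the light chain of the cystine and glutamate exchanger, which brings in the cystine from which glutathione is made. It lies on chromosome 3 (mm9, 50168858 to 50247535) and had the largest change of the 10 genes. M11035 and M11640 had 55.7 and 54.5 CPM and M9232 had 111 CPM, while T11035, T11640 and T9232 had 247, 393 and 296 CPM. Every tumor was above every gland, and M9232 stood well above the other glands. The gland mean was 73.8 ± 32.3 CPM (SD, n = 3) and the tumor mean 312 ± 74.5 CPM, a rise of 4.37-fold (log2 fold change 2.13 ± 0.29 SE, adjusted p = 5.93e-04, limma). Within each mouse the difference was 2.14, 2.84 and 1.41 on the log2 scale, the smallest between T9232 and M9232. *Slc3a2*, which encodes the heavy chain that pairs with it, had 49.2, 52.2 and 73.0 CPM in the glands and 42.8, 41.2 and 46.8 CPM in the tumors and did not pass (log2 fold change -0.39, adjusted p = 0.123, limma). It is no member of the 10 and was chosen after its values were seen.

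*Gclc* and *Gclm* encode the catalytic and the modifier subunit of glutamate-cysteine ligase, which makes the rate-limiting step of glutathione synthesis. *Gclc* lies on chromosome 9 (mm9, 77602342 to 77642292) and had 63.0, 85.6 and 81.7 CPM in the glands and 35.5, 47.0 and 41.1 CPM in the tumors (in the order of mice given above). The 3 tumors all lay below the 3 glands, as in 26.3% of all genes. The gland mean was 76.8 ± 12.0 CPM (SD, n = 3) and the tumor mean 41.2 ± 5.76 CPM, 1.85-fold lower (log2 fold change -0.89 ± 0.18 SE, adjusted p = 0.00484, limma). The difference passed the adjusted p but not the fold threshold, and the 3 mice differed little, with -0.82, -0.86 and -0.98 on the log2 scale. *Gclm*, on chromosome 3 (mm9, 121948475 to 121972902), had 18.1, 27.4 and 23.5 CPM in the glands and 23.3, 24.2 and 15.1 CPM in the tumors. These ranges overlapped, with the tumor higher in 1 mouse and lower in 2. Its log2 fold change was -0.15 with a 95% interval of -0.70 to 0.41 (adjusted p = 0.662, limma). The cystine importer and the catalytic subunit of the enzyme that uses cysteine had log2 fold changes of opposite sign in each of the 3 mice.

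*Txnrd1* encodes the cytosolic thioredoxin reductase, which passes electrons from NADPH to thioredoxin. It lies on chromosome 10 (mm9, 82296696 to 82360469) and had 55.7, 51.2 and 58.5 CPM in the glands and 86.9, 115 and 115 CPM in the tumors. The tumors all lay above the glands, and the glands differed little. The mean was 55.2 ± 3.70 CPM (SD, n = 3) in the glands and 106 ± 16.3 CPM in the tumors, a fold of 1.90 (log2 fold change 0.92 ± 0.16 SE, adjusted p = 0.00233, limma). Without T11035 the log2 fold change was 1.06, past the fold threshold. *Srxn1*, which encodes the sulfiredoxin that restores overoxidized peroxiredoxins, lies on chromosome 2 (mm9, 151931252 to 151937112). It had 23.8, 29.4 and 27.6 CPM in the glands and 19.5, 41.0 and 42.3 CPM in the tumors. T11035 was the lowest of the 6 libraries and the other tumors were the highest. The log2 fold change was 0.27 with a 95% interval of -0.40 to 0.93 (adjusted p = 0.496, limma).

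*Hmox1* encodes heme oxygenase 1, which breaks heme into biliverdin, iron and carbon monoxide, and is also abundant in macrophages that clear red blood cells. It lies on chromosome 8 (mm9, 77617490 to 77624495). M11035, M11640 and M9232 had 12.4, 15.9 and 26.1 CPM and T11035, T11640 and T9232 had 23.8, 45.2 and 63.8 CPM. The tumor was higher in each mouse, but T11035 lay below M9232, so the tissues overlapped. The gland mean was 18.1 ± 7.14 CPM (SD, n = 3) and the tumor mean 44.3 ± 20.02 CPM, a rise of 2.34-fold (log2 fold change 1.22 ± 0.38 SE, adjusted p = 0.0319, limma). The call was lost without M11035, M11640, T11640 or T9232, with log2 fold changes of 0.99, 1.16, 1.15 and 0.91 and adjusted p of 0.0895, 0.0809, 0.107 and 0.116 (limma). With the mouse as a block the call was kept. In each tissue *Hmox1* was lowest in M11035 or T11035 and highest in M9232 or T9232. The sum of 12 macrophage markers was 422, 1040 and 1391 CPM in M11035, M11640 and M9232 and 714, 1006 and 1159 CPM in T11035, T11640 and T9232. The sum of 12 epithelial markers had the same order, with 265, 346 and 559.9 CPM in the glands and 3968, 4909 and 5170.0 CPM in the tumors. The order is thus not particular to macrophage markers, and the part of either sum in the *Hmox1* values was not tested.

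*Nqo1* encodes a quinone reductase and is widely used as a reporter of NRF2 activity. It lies on chromosome 8 (mm9, 109912125 to 109927106) and was among the least abundant of the 10 genes. It had 3.66, 5.29 and 6.57 CPM in the glands and 3.16, 7.34 and 5.09 CPM in the tumors, or between 17 and 56 fragments per library. The tissues overlapped, and the tumor was higher in 1 mouse (T11640) and lower in the others. The log2 fold change was -0.027 with a 95% interval of -0.81 to 0.76 (adjusted p = 0.958, limma), so a change of 2-fold in either direction lay outside the interval.

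*Gsta4* and *Gstp1* encode glutathione transferases. The enzyme of *Gsta4* acts on 4-hydroxynonenal, a product of lipid peroxidation. *Gsta4*, on chromosome 9 (mm9, 78039773 to 78057155), had 61.0, 97.5 and 75.5 CPM in the glands and 92.3, 149.7 and 110.0 CPM in the tumors. The tumor was higher in each mouse, by 0.59, 0.62 and 0.54 on the log2 scale, but T11035 lay below M11640. The difference did not pass without the block (log2 fold change 0.58, 95% interval 0.06 to 1.11, adjusted p = 0.0721, limma), and with the mouse as a block the adjusted p was 0.0128 (limma) at a fold below 2. *Gstp1*, on chromosome 19 (mm9, 4035411 to 4037921), had 2.64, 4.29 and 5.06 CPM in the glands and 2.61, 3.93 and 2.10 CPM in the tumors. The tissues overlapped, although the tumor was lower in each mouse, and the log2 fold change was -0.41 with a 95% interval of -1.17 to 0.35 (adjusted p = 0.355, limma). Its values are uncertain, because its transcript is 98.1% identical over 701 bp to that of *Gstp2*, a gene not among those of the table, and fragments that fit both genes could have been assigned to neither. No protein-coding transcript of another gene matched the other 9 genes at 95% identity over 200 bp, and noncoding transcripts and pseudogenes were not searched. No exon of the 10 genes overlapped another gene of the table.

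**Figure D2:**
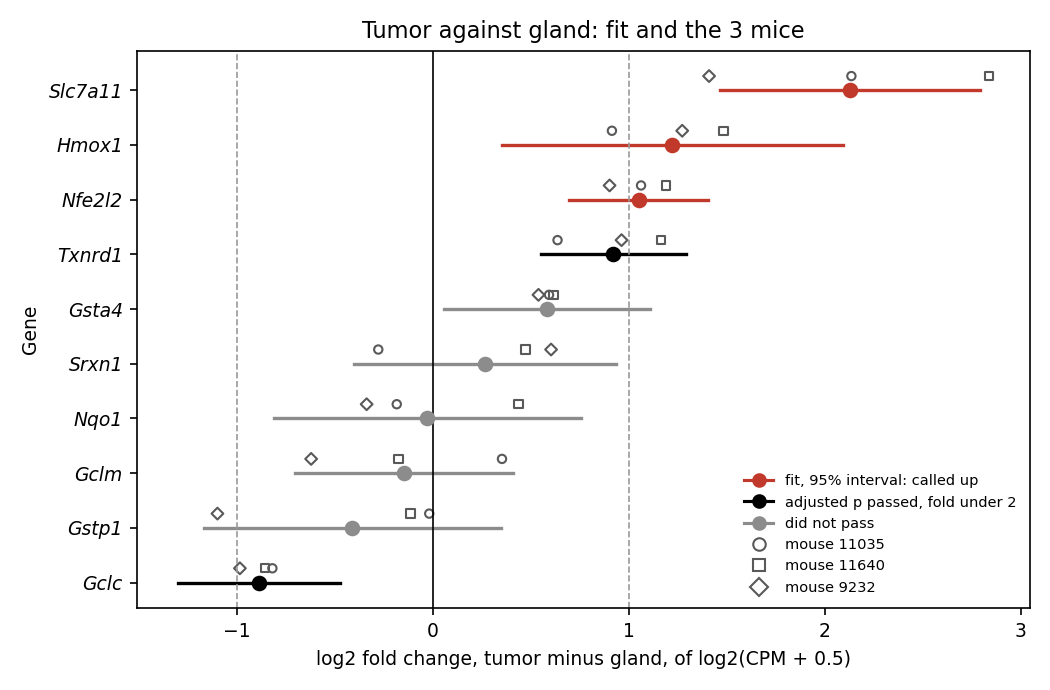
Log2 fold change of tumor against gland for the 10 genes, as the limma estimate with its 95% interval (filled points and bars) and as the difference within each mouse (open symbols). Dashed lines mark a fold of 2. The intervals of *Slc7a11*, *Hmox1*, *Nfe2l2*, *Txnrd1* and *Gsta4* lie above 0, that of *Gclc* lies below, and those of the other 4 genes cross 0.

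Levels of different genes were compared as CPM per kilobase of the longest annotated transcript. In the glands *Gsta4* had the highest level, with 81.5 ± 19.2 CPM per kb (SD, n = 3), followed by *Nfe2l2* with 51.1 ± 6.29, *Gclc* with 22.4 ± 3.52 and *Txnrd1* with 15.2 ± 1.02. *Hmox1*, *Srxn1* and *Slc7a11* had 11.3 ± 4.45, 9.58 ± 1.02 and 7.99 ± 3.50 CPM per kb, and these 3 neighbors overlapped, as did *Txnrd1* with *Hmox1* and *Slc7a11* with *Gstp1*. *Gstp1*, *Gclm* and *Nqo1* were the lowest, with 5.31 ± 1.64, 4.75 ± 0.967 and 3.33 ± 0.938 CPM per kb. In the tumors *Gsta4* with 123 ± 30.7 and *Nfe2l2* with 106 ± 13.1 CPM per kb were again the highest and overlapped. *Slc7a11* was the third highest with 33.8 ± 8.08 CPM per kb, overlapping *Txnrd1* with 29.1 ± 4.47 and *Hmox1* with 27.6 ± 12.5. *Gclc* with 12.0 ± 1.68 and *Srxn1* with 12.2 ± 4.54 overlapped, as did *Srxn1* with *Hmox1*, and *Gclm*, *Gstp1* and *Nqo1* were again the lowest, with 4.31 ± 1.03, 3.82 ± 1.26 and 3.35 ± 1.35 CPM per kb. Levels per kilobase depend on the transcript chosen, and that of *Slc7a11*, with 9227 bp, was the longest. The rank of *Gstp1* is uncertain, because fragments that also fit *Gstp2* could have been left out of its count, as given above.

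**Figure D3:**
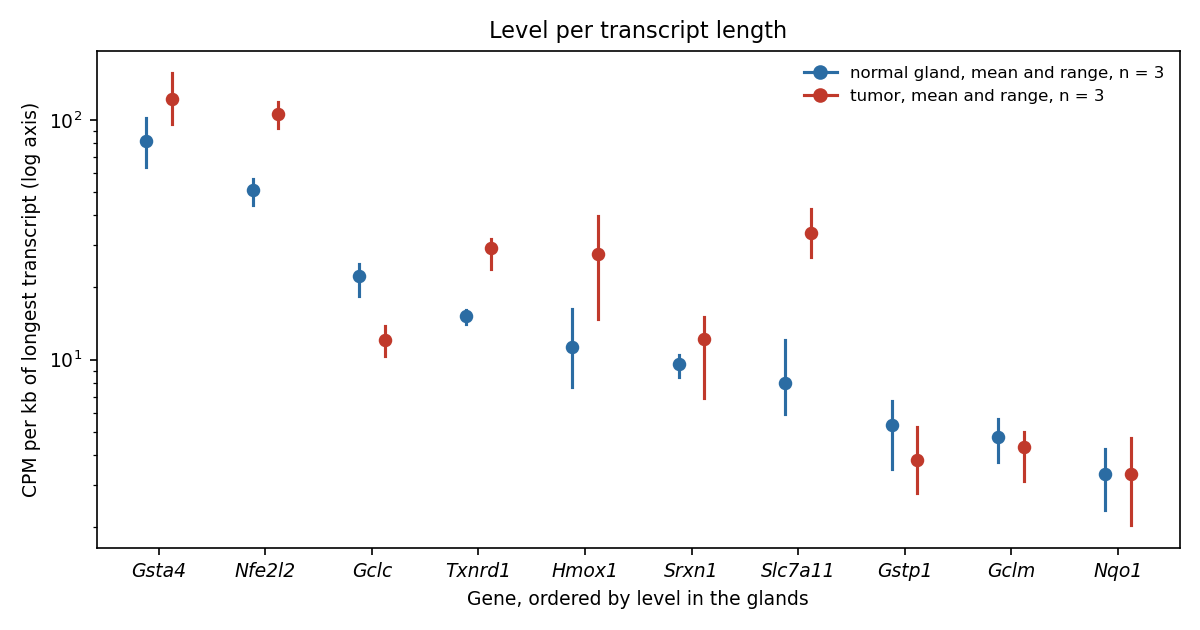
CPM per kilobase of the longest transcript (log axis) for the 10 genes, ordered by their level in the glands, with the mean as a point and the lowest and highest library as a bar (n = 3). *Gsta4* and *Nfe2l2* are the 2 highest in both tissues, and *Slc7a11* goes from the seventh highest in the glands to the third highest in the tumors.

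The other genes of the pathway were taken from 8 lists, in which a gene could stand under an older and a newer symbol (*Sepp1* and *Selenop*). Of the 149 symbols listed, 134 were in the table. Of these, 15 were called up and 33 down, or 48 in either direction. Among all genes, 14.5% were called up, 13.7% down and 28.2% in either direction. These shares are the ones to set beside the counts of each list below. Glutathione transferases accounted for 9 of the 33 falls and the list of NADPH supply for 7. From each list the gene with the largest rise and the gene with the largest fall are given, together with *Keap1*, and any further gene named was chosen after its values were seen.

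Among 15 regulators and partners of NRF2, 2 were called up and 1 down, with a median log2 fold change of 0.022. *Keap1*, the repressor of NRF2, had 13.8, 15.5 and 14.8 CPM in the glands and 10.8, 10.5 and 12.6 CPM in the tumors. The 3 tumors lay below the 3 glands, but the difference was small and did not pass (log2 fold change -0.37, 95% interval -0.79 to 0.053, adjusted p = 0.144, limma). *Nfe2l3*, which encodes a relative of NRF2, rose from 44.4 ± 11.3 CPM (SD, n = 3) in the glands to 106 ± 5.19 CPM in the tumors (limma log2 fold change 1.27, adjusted p = 0.00105). *Bach2*, which encodes a B cell repressor of the same DNA element, fell from 91.9 ± 42.4 in the glands to 21.1 ± 0.779 CPM in the tumors (limma log2 fold change -1.99, adjusted p = 0.0011). *Maff*, which encodes a small MAF partner, was the other gene called up (log2 fold change 1.09, adjusted p = 0.0453, limma), and *Mafg*, *Bach1* and *Dpp3* passed the adjusted p with a fold below 2 and a higher level in the tumors (log2 fold changes 0.93, 0.90 and 0.66, adjusted p = 0.00486, 0.00529 and 0.0420, limma). *Nfe2l1*, which encodes another relative of NRF2, passed below that fold in the other direction, and its 3 tumors lay below the 3 glands (log2 fold change -0.66, adjusted p = 0.0178, limma). The *Maff* call was lost without M11035, M11640, T11640 or T9232. In the fit with 1 gland (M9232), *Bach2* was the 1 gene of this list called instead of 3.

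Of 21 genes of glutathione synthesis and use, 4 were called up and 4 down, with a median of 0.28. *Glrx*, which encodes glutaredoxin and removes glutathione from proteins, had 33.7, 35.5 and 40.1 CPM in the glands and 109, 324 and 344 CPM in the tumors (log2 fold change 2.65, adjusted p = 9.17e-04, limma). T11035 was far below the other tumors but above every gland. *Oplah*, which encodes the 5-oxoprolinase that returns glutamate for glutathione synthesis, fell from 17.5 ± 3.34 CPM (SD, n = 3) in the glands to 1.56 ± 0.248 CPM in the tumors (limma log2 fold change -3.12, adjusted p = 3.33e-05). The other genes called up were *Cth*, *Ggct* and *Gpx7*, and the others called down were *Gpx4*, *Ggt5* and *Glrx5*. *Cth*, which encodes the enzyme that makes cysteine from cystathionine, had a log2 fold change of 2.63, and *Gpx4*, which encodes the peroxidase that repairs lipid hydroperoxides, fell by 2.03 on that scale (limma adjusted p = 2.56e-04 and 3.88e-04). The *Gpx7* call was lost without T11640 and the *Glrx5* call without M11035. The fit with 1 gland called 5 genes instead of 8, and *Glrx* was not among them (log2 fold change 2.51, adjusted p = 0.0517, limma).

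Glutathione transferases other than *Gsta4* and *Gstp1* were mostly lower in the tumors. Of 17 in the table, 9 were called down and 3 up, where 13.7% and 14.5% of all genes were. The median log2 fold change was -1.41. In 12 of them the 3 tumors lay below the 3 glands, where 26.3% of all genes did the same. *Gstz1*, which encodes an enzyme of tyrosine breakdown, had 254, 267 and 154 CPM in the glands and 23.6, 16.9 and 20.5 CPM in the tumors (log2 fold change -3.40, adjusted p = 1.65e-05, limma). *Gsto1* rose, from 11.4, 14.7 and 11.1 CPM in the glands to 44.5, 73.9 and 88.1 CPM in the tumors (limma log2 fold change 2.38, adjusted p = 1.84e-04). *Gsta2* and *Gstm7* were the others called up, and *Gsta2* did not exceed the floor in any gland. The genes of this family resemble each other, so some fragments could have been assigned to a relative. All 12 adipocyte markers were called down in the same libraries, as given above, and their part in the falls of this family was not tested.

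Among 18 genes of the thioredoxin and peroxiredoxin system, 1 was called up and 3 down, with a median of -0.13. *Sesn2*, which encodes a stress-induced sestrin, rose from 4.06 ± 0.993 CPM (SD, n = 3) in the glands to 11.5 ± 5.53 CPM in the tumors (limma log2 fold change 1.33, adjusted p = 0.0147). *Txnip*, which encodes an inhibitor of thioredoxin, fell from 399 ± 96.8 in the glands to 86.0 ± 14.1 CPM in the tumors (limma log2 fold change -2.19, adjusted p = 8.89e-05). *Txn1*, the cytosolic substrate of the *Txnrd1* enzyme, passed the adjusted p with a fold below 2 (log2 fold change 0.80, adjusted p = 0.0167, limma), whereas *Txnrd2*, the mitochondrial reductase, was called down (log2 fold change -1.66, adjusted p = 0.00364, limma). The others of this list that passed below 2-fold were *Prdx5*, higher (log2 fold change 0.998, adjusted p = 0.0157, limma), and *Sesn1*, *Prdx3* and *Sesn3*, lower (log2 fold changes -0.91, -0.84 and -0.62, adjusted p = 0.00142, 0.0207 and 0.0268, limma). *Sesn2*, the only rise called in the list, was not called without T9232 (log2 fold change 0.98, adjusted p = 0.0450, limma). With 1 gland, *Txnip* was the 1 gene called instead of 4.

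NADPH supplies the electrons for both glutathione and thioredoxin. Of 16 genes in the list of NADPH supply, 7 were called down and 0 up, with a median log2 fold change of -0.84. The list is broad, and some of its enzymes, among them those of *Tkt* and *Taldo1*, do not make NADPH themselves. *Me1*, which encodes malic enzyme and is both an NRF2 target and a gene of fat synthesis, had 1145, 3106 and 1049 CPM in the glands and 54.1, 85.7 and 67.6 CPM in the tumors (log2 fold change -4.50, adjusted p = 4.61e-05, limma). *Tkt*, *Me3*, *Idh1*, *Taldo1*, *Pgd* and *Idh2* were the others called down, with log2 fold changes from -3.27 to -1.08. *G6pdx*, which encodes the first enzyme of the pentose phosphate pathway, had a log2 fold change of -0.75 and did not pass (adjusted p = 0.0643, limma). The adipocyte markers fell in the same libraries, from 7323 to 13731 CPM in the glands to 271.5 to 424 CPM in the tumors, and their part in these falls was not tested. The *Idh1* and *Pgd* calls were lost without M11640 and the *Idh2* call without T9232. With M9232 as the only gland, 2 genes (*Me1* and *Tkt*) were called instead of 7.

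Of 12 heme and iron genes, 1 was called up and 3 down, with a median of -0.63. *Tfrc*, the transferrin receptor, rose from 115.5 ± 0.512 CPM (SD, n = 3) in the glands to 240.1 ± 23.9 CPM in the tumors (limma log2 fold change 1.05, adjusted p = 3.98e-04). *Fech*, which encodes the last enzyme of heme synthesis, fell from 65.1 ± 11.7 in the glands to 28.8 ± 0.715 CPM in the tumors (limma log2 fold change -1.15, adjusted p = 9.56e-04). Without T11035, the *Tfrc* call, the only rise of the list, was lost, with a log2 fold change of 0.998 against the threshold of 1 (adjusted p = 0.00257, limma). The *Fech* call was lost with M9232 as the only gland (log2 fold change -0.91, adjusted p = 0.0260, limma). The ferritin genes *Fth1* and *Ftl1*, which are NRF2 targets, did not pass (log2 fold changes -0.36 and -0.47, adjusted p = 0.428 and 0.264, limma).

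Of 21 genes of quinone and carbonyl detoxification, 2 were called up and 3 down, with a median of 0.065. *Ptgr1* and *Akr1b8*, which encode reductases of reactive carbonyls, were the genes called up. *Ptgr1* had 7.52, 7.76 and 15.7 CPM in the glands and 42.8, 72.2 and 83.5 CPM in the tumors (log2 fold change 2.65, adjusted p = 4.03e-04, limma). *Akr1b8* had 3.86, 9.08 and 7.66 CPM in the glands and 36.5, 40.1 and 32.4 CPM in the tumors (log2 fold change 2.39, adjusted p = 3.43e-04, limma). *Aox1*, which encodes an aldehyde oxidase, had the largest fall, from 63.2 ± 10.4 CPM (SD, n = 3) in the glands to 10.2 ± 2.44 CPM in the tumors (limma log2 fold change -2.58, adjusted p = 4.72e-05). *Aldh2* and *Cbr1* were the others called down (log2 fold changes -2.54 and -1.01, adjusted p = 4.92e-05 and 0.00708, limma). With a fold below 2, *Abcc1* passed the adjusted p with a higher level in the tumors, and *Nqo2* and *Osgin2* with a lower one (log2 fold changes 0.74, -0.70 and -0.61).

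Of 14 genes that make or remove superoxide and peroxide, 2 were called up and 3 down, with a median of 0.17. *Cat*, which encodes catalase, had 490.4, 686 and 554 CPM in the glands and 46.3, 57.1 and 45.3 CPM in the tumors (log2 fold change -3.52, adjusted p = 3.05e-06, limma). *Sod1* and *Sepp1* were the others called down, with log2 fold changes of -2.06 and -1.91. *Mt2*, a metallothionein, had 1.83, 2.15 and 11.6 CPM in the glands and 40.6, 32.0 and 28.8 CPM in the tumors (log2 fold change 3.01, adjusted p = 0.00309, limma), and *Nox4*, an oxidase that makes hydrogen peroxide, was the other gene called up, a call lost without M11035 (log2 fold change 0.95, adjusted p = 0.0174, limma). Without M9232, 8 genes of this list were called instead of 5.

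**Figure D4:**
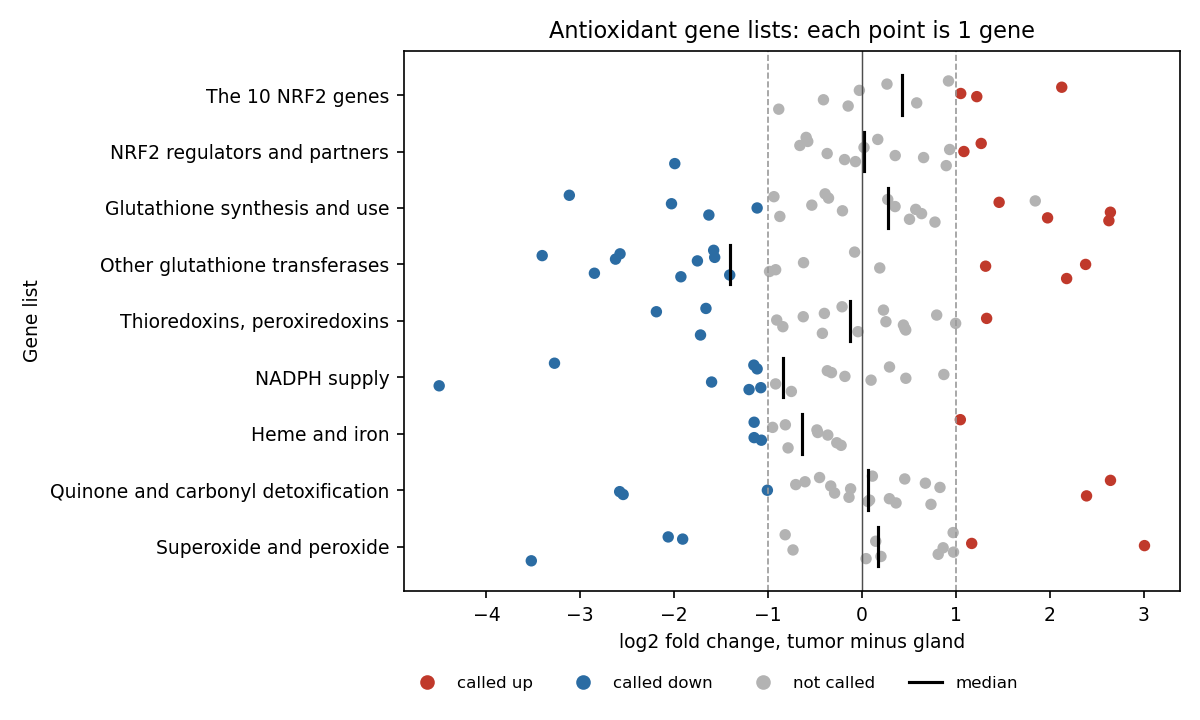
Log2 fold change of tumor against gland for the 10 genes and the 8 pathway lists, with 1 point per gene (red called up, blue called down, gray not called) and a black bar at the median. Dashed lines mark a fold of 2. The median of the other glutathione transferases is -1.41 and that of the NADPH supply list is -0.84, while that of the 10 genes is 0.43.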

How the data were processed

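RNA-Seq libraries of 3 mammary tumors and 3 adjacent glands were used, grouped by the tissue type in the labels. Per the labels (the submitters' processing notes) and the paper's methods, read pairs were processed with CASAVA 1.8.2, mapped to mm9 with TopHat2 2.0.3 and counted per RefSeq gene with HTSeq 0.5.3p9. Libraries were made from total RNA with the Ovation system, and strand-specific counting is not given in the sources used here. The authors deposited a normalized expression signal, CPM on the effective library size of edgeR 3.6.1, for 15280 genes. These columns sum to between 952151 and 1041170 CPM. Values of each library were multiples of a common step (100% whole within 0.001), so fragments could be recovered. No libraries of a tissue were copies (lowest chi-square per degree of freedom 13.0). The lowest total of a gene was 11 fragments.

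Genes were tested with limma 3.58.1 (R 4.3.3, mean-variance trend, pseudocount 0.5, no block), and called where the adjusted p did not exceed 0.05 and the log2 fold change reached 1 in size. Fold changes are on the log2(CPM + 0.5) scale, which understates those of low genes. The study's further minimum on gene length was not applied. On recovered fragments, edgeR's quasi-likelihood test (4.0.16) called 4462 genes and DESeq2 (1.42.0) called 4436, against 4309 with limma. Scripts were tested on simulated data. The labels pair the libraries by mouse, and the deviations of a mouse's gland and tumor from their group means, over the 14712 genes averaging 1 CPM or more, had r = 0.107 (M11035 and T11035), 0.151 (M11640 and T11640) and 0.0168 (M9232 and T9232). The paper does not name a block, so the blocked fit is an alternative. The members, the 8 pathway lists and the 8 marker lists (adipocyte, epithelial, squamous, fibroblast, macrophage, neutrophil, endothelial and skeletal muscle) were chosen with earlier results of these data known. Named genes are the 10 members, the called gene with the largest rise and with the largest fall of each pathway list if it averaged 1 CPM or more, *Keap1* and *Atf3*. Positions are from GENCODE vM1 on mm9, near-identical transcripts from BLAST 2.17.0, and promoter sequences from RefSeq (GRCm38.p6) by symbol, for 7 of the 10 genes. Floors of 3 fragments cover counting error only. The intervals of limma rest on the spread of a gene between the 3 libraries of a tissue, combined with a variance pooled over all genes. They do not use the pairing by mouse.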

Additional observations from a re-analysis of the deposited data

How the results depend on the processing

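All 21 counts and member fold changes were recomputed under 16 alternatives. Of these, the fit without the 2 glands richest in muscle transcripts was chosen after seeing the data. It rests on 1 gland, assumed to vary like the other libraries. Fewer of all genes were called in it than with no library left out, so calls were also lost outside these genes and lists. Leaving out 1 library at a time, between 1 and 4 of the 10 genes were called up and between 0 and 1 down, and between 5 and 8 genes of superoxide and peroxide. With the adjusted p alone, 4 of the 10 genes were called up and 1 down (*Gclc*), where 21.6% and 19.6% of all genes were. In either direction, 7 of 15 regulators of NRF2 and 9 of 18 thioredoxin and peroxiredoxin genes were called. So were 8 of 21 quinone and carbonyl genes and 9 of 14 superoxide and peroxide genes, where 41.2% of all genes were. Without the 2 glands richest in muscle transcripts, 1 of the 10 genes was called up, 1 regulator of NRF2, 5 genes of glutathione synthesis and use, 1 thioredoxin or peroxiredoxin gene and 2 NADPH genes. *Nqo1* had a positive log2 fold change with edgeR (0.010) and DESeq2 (0.014), and ran from -0.29 to 0.26 when 1 library was left out. *Gclm* ran from -0.31 to 0.064 when 1 library was left out. The cause was not tested. With the mouse as a replicate block, limma called 4298 genes, and 3 of the 10 genes were up and 0 down, the same calls as without it. The block changed no other call among the 10 genes, also with edgeR. No scaling moved the median log2 fold change of all genes by more than 0.1.

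With 3 mice, the precision is set by the spread between them. *Nqo1* and *Gstp1* rest on 13 to 56 fragments per library, and all other genes of the 10 on 61 or more. Tissue and cell makeup cannot be told apart in these libraries.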
